A study of Mus musculus with 5 samples.

Results

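The genes described here are 9 genes of mucosal defence and secretion, namely Gp2, Reg3b, Reg3g, Fcgbp, Pigr, Lcn2, Tff2, Tff3 and Muc1. They were picked by name, with their Prox1 OE and Control values in these same libraries already known, from 55397 genes in the deposited table. All 9 passed the filter on low values (normalised counts averaging 10 or more across the 5 libraries), as did 17105 genes in all. Because the choice used this contrast, the differences between groups in these 9 genes are given as a description with no test.

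Bulk RNA had been sequenced from liver tumours dissected out of female C57BL/6N mice, with 2 Control and 3 Prox1 overexpression (Prox1 OE) samples. Every mouse was injected through the tail vein at 8 weeks of age with 2 mL of 0.9% saline that held 4 µg of a CMV-driven Sleeping Beauty transposase plasmid. Both groups also received 10 µg of the plasmids pT3-EF1a-AKT and pT3-EF1a-NICD-IRES-rtTA, which place Akt and the intracellular domain of Notch under the EF1a promoter. The groups differed in a further 10 µg of plasmid, which was pT3-Tre-FLAG-mmProx1-IRES-GFP for Prox1 OE and the empty vector pT3-Tre-IRES-GFP for Control. Both groups were put on food with 6.25% doxycycline hyclate at day 21, so that Prox1 was switched on between weeks 3 and 4. Tumours were taken either a week into overexpression or at a humane endpoint, and the labels do not say which held for which tumour.

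In this model, plasmid DNA forced into the tail vein is taken up by hepatocytes, and only cells that keep the transposons carry the driver genes. A dissected nodule also holds stroma, blood and neighbouring liver. In bulk RNA, fewer cells of a type and less RNA per cell cannot be told apart. The labels do not say whether the tumours came from separate mice, so the p-values below measure only the spread between these samples.

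Mucosal surfaces are guarded by a mixture of secreted proteins. Mucins and trefoil factors build and repair the mucus gel, and C-type lectins of the Reg3 family kill or hold off bacteria. Lipocalin 2 starves microbes of iron by binding their siderophores, and the polymeric immunoglobulin receptor carries dimeric IgA across the epithelium. In liver, bile duct cells make part of this repertoire and pass it into bile, and lipocalin 2 is also an acute phase product of hepatocytes.

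Promoter sequences are shown for the 4 genes with the lowest fold changes and for Pigr, which was higher in Prox1 OE, so that the DNA ahead of genes that differed in opposite directions can be read side by side. Each runs from 250 bases before the annotated start to 50 bases after it, from RefSeq on GRCm38.p6, and is written on the strand of the gene. Capitals mark TATAAA, the core of the TATA box, on the gene's strand, and TGGGAA or its reverse complement TTCCCA, the core bound by RBPJ, the DNA-binding partner of the Notch intracellular domain.
Gp2, chr7:119459223-119459522, minus strand: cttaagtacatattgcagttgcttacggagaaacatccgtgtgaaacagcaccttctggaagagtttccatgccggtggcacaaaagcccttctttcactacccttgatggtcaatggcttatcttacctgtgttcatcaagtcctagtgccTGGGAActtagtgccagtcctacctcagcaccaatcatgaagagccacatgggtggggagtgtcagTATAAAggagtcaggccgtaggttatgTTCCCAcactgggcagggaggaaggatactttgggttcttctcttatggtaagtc
Reg3b, chr6:78370635-78370934, plus strand: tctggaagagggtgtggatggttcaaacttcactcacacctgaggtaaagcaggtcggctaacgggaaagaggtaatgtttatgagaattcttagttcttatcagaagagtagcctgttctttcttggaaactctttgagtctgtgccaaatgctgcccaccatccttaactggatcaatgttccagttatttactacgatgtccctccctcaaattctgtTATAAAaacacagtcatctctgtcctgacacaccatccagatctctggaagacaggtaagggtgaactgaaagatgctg
Reg3g, chr6:78468825-78469124, minus strand: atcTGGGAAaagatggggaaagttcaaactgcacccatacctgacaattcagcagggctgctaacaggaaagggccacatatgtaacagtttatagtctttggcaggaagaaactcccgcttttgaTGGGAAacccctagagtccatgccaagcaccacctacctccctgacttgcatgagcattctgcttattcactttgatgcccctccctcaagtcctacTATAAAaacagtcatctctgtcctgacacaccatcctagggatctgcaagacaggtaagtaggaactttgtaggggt
Fcgbp, chr7:28070986-28071285, plus strand: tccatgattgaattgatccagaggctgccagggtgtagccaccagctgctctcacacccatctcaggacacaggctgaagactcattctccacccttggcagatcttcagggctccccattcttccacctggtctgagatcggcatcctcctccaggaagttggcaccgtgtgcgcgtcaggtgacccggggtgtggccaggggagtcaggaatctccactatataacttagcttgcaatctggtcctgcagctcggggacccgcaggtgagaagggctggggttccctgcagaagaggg
Pigr, chr1:130826434-130826733, plus strand: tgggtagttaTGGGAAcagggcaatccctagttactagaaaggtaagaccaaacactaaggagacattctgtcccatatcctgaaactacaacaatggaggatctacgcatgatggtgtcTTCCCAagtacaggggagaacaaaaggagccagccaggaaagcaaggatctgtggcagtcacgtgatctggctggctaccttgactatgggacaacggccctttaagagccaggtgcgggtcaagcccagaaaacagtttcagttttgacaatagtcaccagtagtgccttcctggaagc

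RefSeq promoters were found for 7 of the 9 genes, not for Tff2 and Tff3. TATAAA stood on the gene's strand in 4 of the 7 (Gp2, Reg3b, Reg3g and Muc1), 27 to 32 bases before the start, against 8.28% of 32544 mouse promoters of the same length. TGGGAA stood on either strand in 3 of the 7 (Gp2, Reg3g and Pigr), against 25.4% of all promoters. TTCNNNGAA, the palindrome bound by STAT factors, was found in Reg3b and Pigr (8.33% of all promoters), and a loose form of the NF-kB site (GGG, any 5 bases, then CC, on either strand) in 4 of the 7 (51.0% of all). In Reg3g, a match to the NF-kB form overlapped the TGGGAA 124 bases before the start. These matches describe letters in the window only. The Reg3b and Reg3g promoters matched at 207 of 296 aligned bases (69.9%), whereas the other 20 pairs matched at 49.6% to 63.7%. TGGGAA stood ahead of both Gp2 and Pigr, which differed between the groups in opposite directions.

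Library totals ran from 48740863 to 56629477 recovered reads and overlapped between the groups, and 3 reads corresponded to 2.46 to 3.54 normalised counts. Replicates were distinct libraries, as chi-square divided by its degrees of freedom was 39.6 for the Control pair and 80.4 to 126 for the Prox1 OE pairs. Prox1 had 4153 and 4664 normalised counts in Control 1 and 2, and 48090, 11113 and 8231 in Prox1 OE 1, 2 and 3. Prox1 was therefore above both Controls in every Prox1 OE library, most of all in Prox1 OE 1, with a limma adjusted p of 0.061. The labels call the cells transformed hepatocytes, and markers of both hepatocytes and bile duct cells were present. Of 12 hepatocyte markers tested with limma, 11 were higher and 0 lower in Prox1 OE, and of 13 cholangiocyte markers tested, 0 were higher and 11 lower. Without Control 1, these became 2 hepatocyte markers higher and 5 cholangiocyte markers lower. Summed hepatocyte markers ran from 1171390 to 1721620 normalised counts in Control and from 3499090 to 5104490 in Prox1 OE, and summed cholangiocyte markers from 778985 to 849823 and from 531277 to 717609. Spp1 made up 91.4% to 96.0% of the cholangiocyte sum, and the other 13 listed markers summed to 65074 and 66975 in Control and to between 21960 and 28784 in Prox1 OE. No defining cholangiocyte marker was at 0. The share of these 2 cell types in the differences below was not tested.

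In the group as a whole, 6 genes were lower in every Prox1 OE library than in both Controls, 2 (Pigr and Tff3) were higher in every Prox1 OE library, and Lcn2 overlapped. As a share of all reads in a library, Pigr also overlapped, which leaves Tff3 as the 1 gene higher without overlap. Among all 17105 genes tested, 32.4% were lower without overlap and 30.9% higher without overlap (63.3% in either direction). The median log2 fold change of Prox1 OE over Control was -1.47 over the 9 genes and -0.02 over all genes tested. A log2 fold change under -2 was found for 4 of the 9 genes and for 263 of all genes tested (1.54%). The genes had been selected with this contrast in view, so these shares are read no further. Every fold change was a difference between group means of log2(normalised count + 1), so for genes with few reads it depends on the added 1 and can differ from the ratio of the mean counts.

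**Figure D1:**
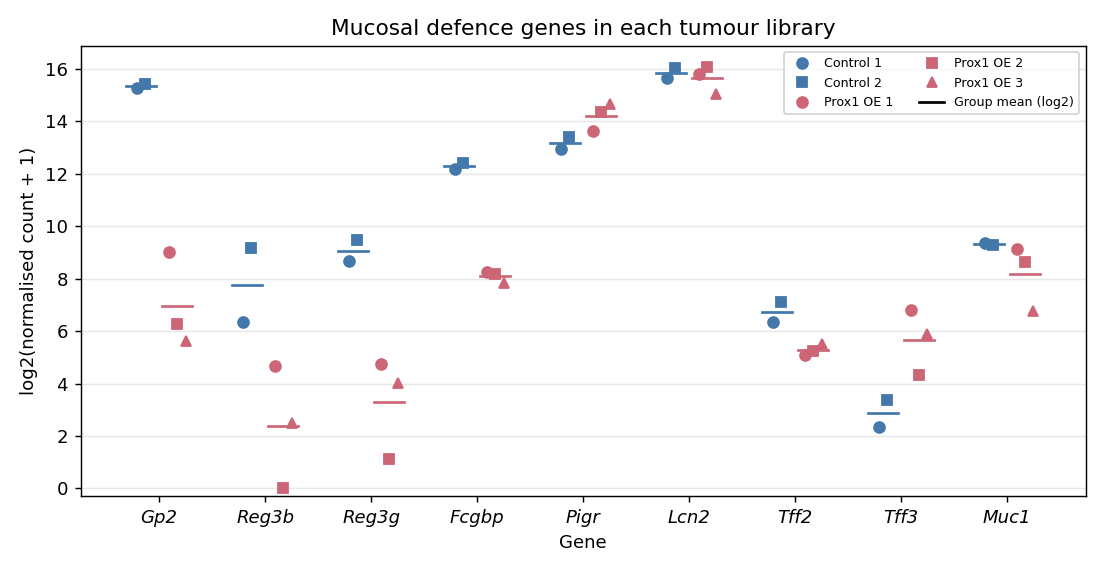
Normalised count of each of the 9 genes in every library, as log2(normalised count + 1) on the vertical axis, with Control in blue and Prox1 OE in red and a bar at each group's mean on the log2 scale. Gp2, Reg3b, Reg3g and Fcgbp lie far lower in every Prox1 OE library, Pigr (on this scaling) and Tff3 lie higher, and the Lcn2 points overlap.

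Of the microbe-binding proteins, Gp2 encodes a zona pellucida domain glycoprotein that pancreatic acinar cells store in zymogen granules and that M cells of the gut use to take up bacteria. Gp2 (ENSMUSG00000030954, mm10 chromosome 7, 119442537 to 119459285, minus strand) had 39158 and 43952 normalised counts in Control 1 and 2, and 513, 76.7 and 48.6 in Prox1 OE 1, 2 and 3. The groups lay 76.3-fold apart at their closest values, and Prox1 OE 1 was the highest of the Prox1 OE libraries by a wide margin. The means were 41555 ± 3390 (SD, n = 2) and 213 ± 261 (SD, n = 3), a ratio of 195, and the log2 fold change of -8.37 (SE 0.86) was the lowest of all 17105 genes tested. In Control, Gp2 took 0.0905% and 0.0959% of all reads.

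Reg3b and Reg3g encode small secreted lectins, Reg3g being the one that kills Gram-positive bacteria by binding their peptidoglycan. Reg3g (ENSMUSG00000030017, mm10 chromosome 6, 78466269 to 78468872, minus strand) had 403 and 705 normalised counts in Control 1 and 2, and 25.6, 1.18 and 15.0 in Prox1 OE 1, 2 and 3. The mean was 554 ± 213 (SD, n = 2) in Control against 13.9 ± 12.2 (SD, n = 3) in Prox1 OE. Both groups lay apart (log2 fold change -5.78, SE 0.96), and the Prox1 OE 2 value came from a single read.

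Reg3b (ENSMUSG00000071356, mm10 chromosome 6, 78370657 to 78373466, plus strand) had 81.3 and 568 normalised counts in Control 1 and 2, and 24.5, 0 and 4.63 in Prox1 OE 1, 2 and 3. Its 2 Control libraries differed 6.98-fold, so that the group means of 325 ± 344 (SD, n = 2) and 9.72 ± 13.0 (SD, n = 3) carried a wide error, although the groups lay apart. The log2 fold change was -5.37 (SE 1.34). It was -6.76 without Control 1 and -3.97 without Control 2, so that its size depended on which Control was used while its sign did not. With 0.1 or 10 added to the counts in place of 1, it was -6.57 or -3.74.

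The pair was compared within each library as well. Reads of Reg3g over those of Reg3b gave 4.96 and 1.24 in Control 1 and 2, and 1.04 and 3.25 in Prox1 OE 1 and 3, with no Reg3b read in Prox1 OE 2. This ratio overlapped between the groups. Their transcripts were identical at 73.3% of aligned bases and shared 0 stretches of 100 bases, the length of a read, so whole reads of the 2 genes could be separated by sequence.

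Fcgbp encodes a large gel-associated protein of mucus that binds the Fc part of IgG and is crosslinked with mucins. Fcgbp (ENSMUSG00000047730, mm10 chromosome 7, 28071236 to 28120862, plus strand) had 4628 and 5480 normalised counts in Control 1 and 2, and 308, 291 and 229 in Prox1 OE 1, 2 and 3. Both groups were tight and lay 15.0-fold apart at their closest values. The means were 5054 ± 603 (SD, n = 2) and 276 ± 41.5 (SD, n = 3), a ratio of 18.3. Its log2 fold change of -4.20 had an SE of 0.17, the smallest among the 9 genes. The neighbouring gene 9530053A07Rik, a related sequence 8.60 kb away, was identical to Fcgbp at 83.2% of aligned transcript bases and shared 167 of 7932 stretches of 100 bases (2.10%), and reads from those stretches could belong to either gene. In reads, Fcgbp exceeded 9530053A07Rik 182- and 95.1-fold in Control and 16.7- to 35.3-fold in Prox1 OE.

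Muc1 encodes a transmembrane mucin of the apical surface of ducts and glands. Muc1 (ENSMUSG00000042784, mm10 chromosome 3, 89229057 to 89233381, plus strand) had 658 and 627 normalised counts in Control 1 and 2, and 566, 394 and 108 in Prox1 OE 1, 2 and 3. The 3 Prox1 OE libraries spread 5.26-fold, and Prox1 OE 1 came within 1.11-fold of the lower Control. The log2 fold change was -1.15 (SE 0.61), and it was -0.44 without Prox1 OE 3.

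The trefoil factors Tff2 and Tff3 are small secreted peptides that stabilise mucus and help epithelia to reseal, Tff2 in the stomach and Tff3 in goblet cells of the intestine. Tff2 (ENSMUSG00000024028, mm10 chromosome 17, 31141049 to 31144282, minus strand) had 81.3 and 137 normalised counts in Control 1 and 2, and 32.7, 36.6 and 44.0 in Prox1 OE 1, 2 and 3. Tff3 (ENSMUSG00000024029, mm10 chromosome 17, 31125306 to 31129646, minus strand) had 4.11 and 9.32 in Control 1 and 2, and 110, 18.9 and 57.9 in Prox1 OE 1, 2 and 3. These neighbours, 11.4 kb apart, differed in opposite directions, Tff2 being lower and Tff3 higher in every Prox1 OE library.

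The log2 fold change was -1.47 (SE 0.33) for Tff2 and 2.80 (SE 0.73) for Tff3. The Tff3 values rested on 5 and 11 reads in Control and on 108, 16 and 50 in Prox1 OE. Tff2 reads were 19.8 and 14.7 times the Tff3 reads in Control 1 and 2, but 0.296, 1.94 and 0.76 times in Prox1 OE 1, 2 and 3. The ratio did not overlap between the groups, and in Prox1 OE 1 and 3 Tff3 held more reads than Tff2. The third trefoil gene of the cluster, Tff1, had 0 reads in all 5 libraries.

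Pigr encodes the polymeric immunoglobulin receptor, which in rodents is made by hepatocytes as well as by bile duct cells. Pigr (ENSMUSG00000026417, mm10 chromosome 1, 130826684 to 130852249, plus strand) had 7948 and 10890 normalised counts in Control 1 and 2, and 12639, 21159 and 26044 in Prox1 OE 1, 2 and 3. On this scale every Prox1 OE library was above both Controls, with Prox1 OE 1 the nearest to them. As a share of all reads, Pigr took 0.0184% and 0.0238% in Control 1 and 2, and 0.0220%, 0.0368% and 0.0397% in Prox1 OE 1, 2 and 3, so that Prox1 OE 1 lay between the Controls. The means were 9419 ± 2080 (SD, n = 2) and 19947 ± 6784 (SD, n = 3), a ratio of 2.12, and the log2 fold change was 1.04 (SE 0.30), or 0.61 with the total read count as library size.

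Lcn2 (ENSMUSG00000026822, mm10 chromosome 2, 32384633 to 32388252, minus strand) had 51717 and 67900 normalised counts in Control 1 and 2, and 57710, 68985 and 33683 in Prox1 OE 1, 2 and 3. The groups overlapped, Prox1 OE 2 being the highest and Prox1 OE 3 the lowest of the 5 libraries. The log2 fold change was -0.21 (SE 0.31), and it was 0.0905 without Prox1 OE 3.

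Levels of different genes were compared per kb of exon. In Control, Lcn2 and Gp2 stood far above the others, with means of 22802 and 20798 normalised counts per kb, ranks 70 and 81 among 21896 protein-coding genes. The Lcn2 and Gp2 ranges overlapped, at 19717 to 25886 and 19598 to 21998 per kb. Pigr followed at 2340 and Fcgbp at 481 per kb, without overlap of the 2. Reg3b, Muc1 and Reg3g had means of 284, 274 and 262 per kb and Tff2 had 187 per kb. The wide Reg3b range of 71.2 to 497 per kb overlapped those of Fcgbp, Muc1, Reg3g and Tff2, and Tff3 was last and apart at 13.6 per kb.

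In Prox1 OE, Lcn2 was again first at 20381 normalised counts per kb and Pigr second at 4956 per kb, with ranges that did not overlap. Muc1, Tff3, Gp2, Tff2 and Fcgbp averaged 152, 127, 107, 64.7 and 26.3 per kb. The Gp2 range of 24.3 to 257 per kb overlapped those of the other 4, and its mean ranked 9515 among protein-coding genes. Reg3b and Reg3g were last at 8.51 and 6.59 per kb, with overlapping ranges. Gp2 thus stood level with Lcn2 in Control and 191-fold below it in Prox1 OE, or 624-fold below it without Prox1 OE 1.

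**Figure D2:**
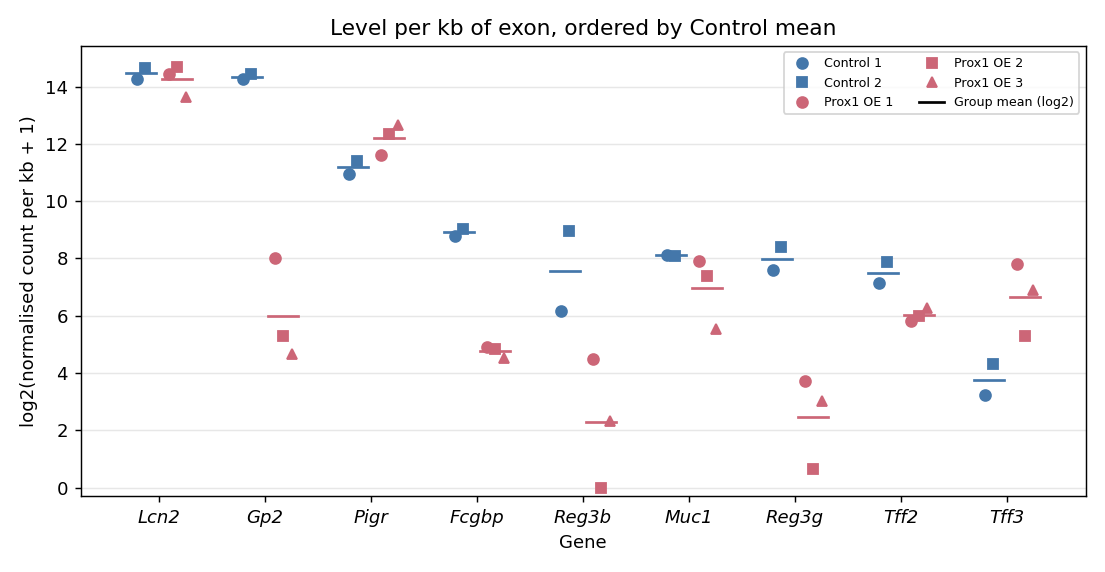
Level of each gene per kb of exon in every library, as log2(normalised count per kb + 1), ordered by the Control mean, with Control in blue, Prox1 OE in red and bars at the group means on the log2 scale. Lcn2 and Gp2 lie together at the top in Control, and Lcn2 alone stays there in Prox1 OE.

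**Figure D3:**
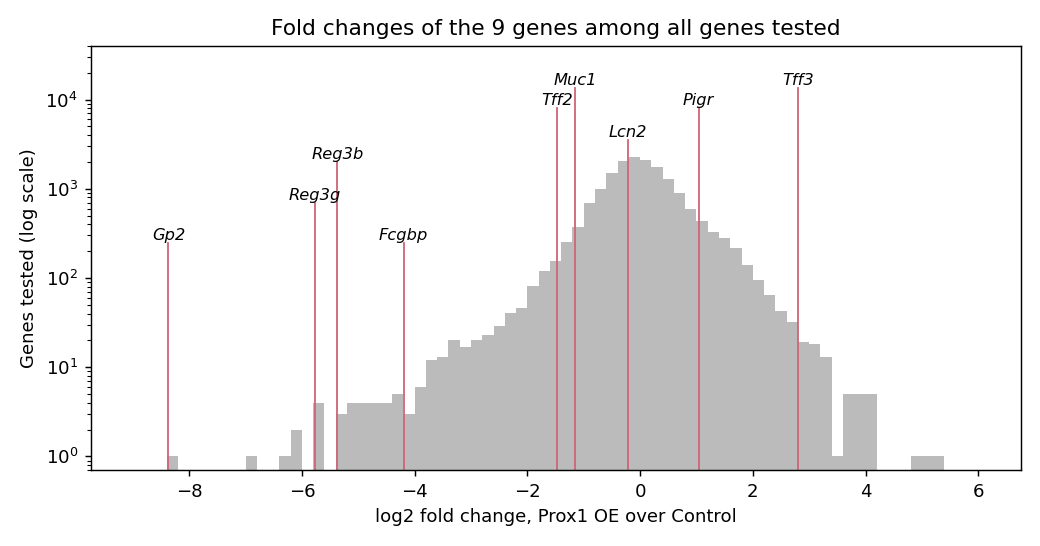
Log2 fold change of Prox1 OE over Control on the horizontal axis, as a histogram of all 17105 genes tested on a log-scaled vertical axis, with red lines at the 9 genes (line heights only separate the names). Gp2 is the lowest gene of all at -8.37, Reg3g and Reg3b rank 6 and 10 from the bottom and Fcgbp 34, and the other 5 genes lie between -1.47 and 2.80.

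The 3 Prox1 OE libraries did not behave alike. Prox1 OE 1, with the highest Prox1 level, held the highest Prox1 OE value for 6 of the 9 genes (Gp2, Reg3b, Reg3g, Fcgbp, Muc1 and Tff3) and the lowest for Tff2 and Pigr. Over all genes tested, it held the highest of the 3 values for 40.0% and the lowest for 35.4%. Leaving Prox1 OE 1 out moved Gp2 to -9.38 and Reg3g to -6.50 on the log2 scale. With any of the 5 libraries left out, log2 fold changes ran from -9.38 to -7.70 for Gp2, from -6.50 to -4.69 for Reg3g and from -4.32 to -4.07 for Fcgbp. The range was 0.81 to 1.34 for Pigr and 2.24 to 3.48 for Tff3. Lcn2 was the only one of the 9 whose sign changed when a library was left out.

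**Figure D4:**
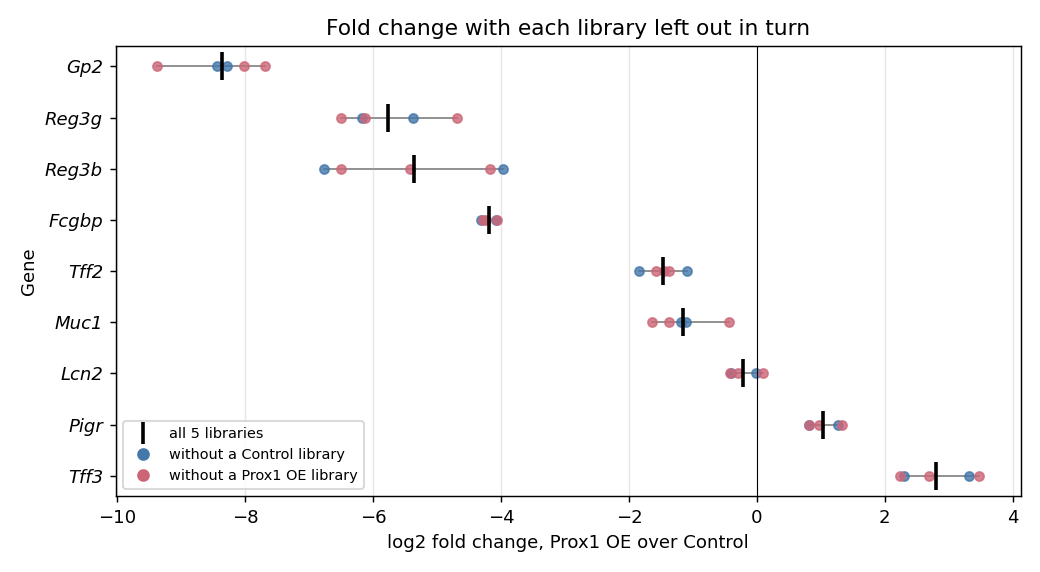
Log2 fold change of each gene with all 5 libraries (black tick) and with each library left out in turn (blue points for a Control left out, red points for a Prox1 OE library left out). Points for Fcgbp stay within -4.32 to -4.07, those for Reg3b spread from -6.76 to -3.97, and those for Lcn2 lie on both sides of 0.

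Genes related to the 9 by family, granule, cell type or signalling pathway were examined next, in 9 lists of 114 different genes. The lists were chosen with earlier results of these data known, so the shares called and the adjusted p-values are not independent of that choice. The limma test across all 17105 genes called 17.1% of them higher and 16.2% lower (33.3% in all) at an adjusted p under 0.05. Of the 114 related genes, 80 were tested, and 10 were called higher (12.5%), 25 lower (31.3%) and 45 neither. The median log2 fold change of the 80 was -0.21. The number called depended on single libraries. It was 11 without Control 1, 18 without Control 2, 23 without Prox1 OE 2 and 45 without Prox1 OE 1, with 9 higher and 9 lower without Control 2 and more lower than higher in the other 3 cases. With the total read count as library size, the share called higher over all genes was smaller (1475 higher and 6833 lower, against 2933 and 2769), as the median of all genes moved to -0.44. Of the 80 related genes, 10 were then higher and 35 lower (43.8%), against 39.9% lower over all genes.

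**Figure D5:**
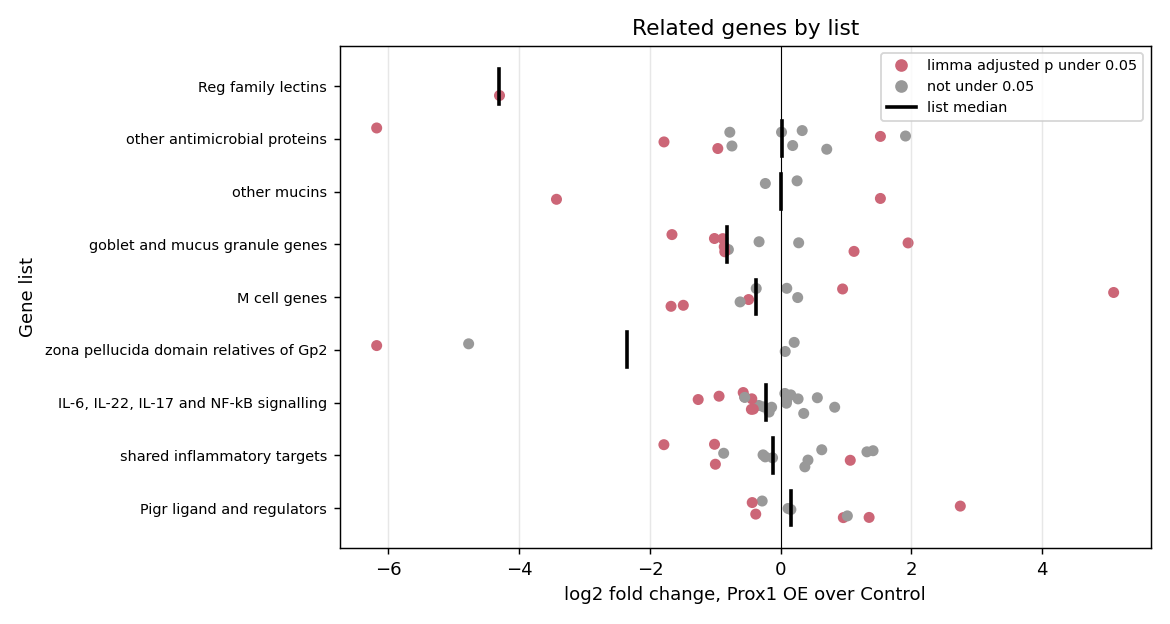
Log2 fold change of Prox1 OE over Control for every tested gene of the 9 related lists, 1 point per gene, in red where the limma adjusted p was under 0.05 and grey otherwise, with a black bar at the list median. Dmbt1 at -6.18 stands in 2 lists, Spib at 5.09 is the highest point, and most points of the signalling list lie near 0.

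In the Reg family, 1 of 5 further members could be tested. Reg1, a secreted lectin of pancreas and gut that lies 37.6 kb from Reg3g, had 55.0 and 131 normalised counts in Control and 10.2, 1.18 and 2.31 in Prox1 OE. It was lower in every Prox1 OE library, with a log2 fold change of -4.31 (SE 0.77, limma adjusted p = 0.0066). The adjusted p was 0.053 without Control 2. Reg2 and Reg3d had 0 reads in all libraries, Reg3a did not exceed 1 read in any, and Reg4, with 6.57 and 10.2 normalised counts in Control and 1.18 to 3.47 in Prox1 OE, stayed under the filter and was not tested.

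Of 11 other antimicrobial genes tested, 1 rose and 3 fell. Dmbt1, a scavenger receptor glycoprotein with zona pellucida and CUB domains that agglutinates bacteria, had 237 and 164 normalised counts in Control and 5.11, 0 and 2.31 in Prox1 OE. Its groups were far apart, with a log2 fold change of -6.18 (SE 0.76, limma adjusted p = 0.0027). Nos2, the inducible nitric oxide synthase, fell by 1.79 on the log2 scale (SE 0.27, limma adjusted p = 0.0039). The epithelial defensin Defb1 rose by 1.52 (SE 0.33, limma adjusted p = 0.012), a call lost without Control 1, Control 2 or Prox1 OE 2. The peptidoglycan-binding protein Pglyrp1 fell by 0.96 (SE 0.31, limma adjusted p = 0.049) and was called in only 6 of 16 alternative analyses. The lysozyme gene Lyz2 and the antiprotease gene Slpi, both abundant, had log2 fold changes of 0.70 and 0.18 and did not pass the test.

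Among the 4 other mucins tested, Muc20 fell and Muc13 rose. The transmembrane mucin Muc13 had 316 and 193 normalised counts in Control and 881, 689 and 597 in Prox1 OE, a log2 fold change of 1.52 (SE 0.26, limma adjusted p = 0.0055). Muc20 had 173 and 258 in Control and 44.0, 8.26 and 17.4 in Prox1 OE, a log2 fold change of -3.43 (SE 0.62, limma adjusted p = 0.0069, and 0.054 without Control 2). Both were without overlap between the groups, and the Muc20 locus overlaps that of Muc4 in the annotation. The gel-forming mucins Muc2, Muc5ac and Muc5b had means under 10 and were not tested. The membrane mucins Muc1, Muc13 and Muc20 thus did not share a direction in these libraries.

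Genes of goblet cells and mucus granules were mixed as well, with 2 of 10 tested called higher and 5 lower. The transcription factor Klf4 fell by 1.01 on the log2 scale (SE 0.18, limma adjusted p = 0.0071), and Galnt3, which starts mucin-type O-glycosylation, fell by 0.89 (SE 0.16, limma adjusted p = 0.0064). Foxa3, a forkhead factor of both goblet cells and hepatocytes, rose by 1.12 (SE 0.21, limma adjusted p = 0.0073). The calls for Klf4, Galnt3 and Foxa3 were each lost without Control 1, and that of Klf4 also without Control 2. Capn8, a calpain of gastric mucous cells, had 9.86 and 27.1 normalised counts in Control and 100.2, 33.04 and 88.0 in Prox1 OE (log2 fold change 1.95, limma adjusted p = 0.042, called in 10 of 16 alternatives). The mucin chaperone Agr2 and the secretory lineage factor Atoh1 had 0 reads throughout, and Spdef, the goblet cell regulator, did not exceed 38.9 normalised counts in any library and did not pass the test. Without Control 1, 0 of the 10 genes were called in either direction.

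Because Gp2 marks M cells, other genes of that cell type were listed, and 2 of 9 tested were higher and 3 lower (2 and 5 with the total read count as library size). Spib, the transcription factor required for M cells, had 142 and 93.2 normalised counts in Control and 8114, 3310 and 2314 in Prox1 OE. It differed in the opposite direction to Gp2, with a log2 fold change of 5.09 (SE 0.48, limma adjusted p = 0.0021). The chemokine gene Ccl20 fell by 1.68 (SE 0.37, limma adjusted p = 0.014) and the factor Sox8 fell by 1.49 (SE 0.41, limma adjusted p = 0.030), while the chemokine gene Ccl9 rose by 0.95 (SE 0.18, limma adjusted p = 0.0081), and these 3 calls were lost without either Control, that of Sox8 also without Prox1 OE 2. Tnfrsf11a, the RANK receptor through which M cells are induced, had a log2 fold change of -0.38 and did not pass. Without either Control, 1 of the 9 genes was called higher and 0 lower.

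The zona pellucida domain relatives of Gp2 gave 1 call lower, Dmbt1, among 4 tested. Umod encodes uromodulin, the kidney tubule protein most like Gp2, and lies 3.43 kb from it on the same strand. It had 325 and 270 normalised counts in Control and 176, 2.36 and 1.16 in Prox1 OE. Prox1 OE 2 and 3 were at 1 or 2 reads while Prox1 OE 1 was within 1.54-fold of the lower Control, and the log2 fold change of -4.77 (SE 1.69) had a limma adjusted p of 0.065. Without Prox1 OE 1 it was -6.79 with an adjusted p of 0.0026. The 2 transcripts were identical at 66.6% of aligned bases and shared 0 stretches of 100 bases. Umod was chosen for description after its values were seen.

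Reg3b, Reg3g and Lcn2 are known targets of IL-22, IL-17 and IL-6 signalling through STAT3 and NF-kB, and the genes of these pathways were tested for that reason. Of 20 tested, 0 were called higher and 7 lower, against 16.2% lower over all genes. For 5 of the 7, the log2 fold change lay between -0.57 and -0.42. Nfkbiz, the IkB zeta cofactor that is induced with Lcn2, had 1411 and 1694 normalised counts in Control and 755, 619 and 571 in Prox1 OE, and fell by 1.26 on the log2 scale (SE 0.17, limma adjusted p = 0.0030). The IL-1 receptor gene Il1r1 fell by 0.94 (SE 0.10, limma adjusted p = 0.0024), Nfkb2 by 0.57 (SE 0.17, limma adjusted p = 0.039) and Relb by 0.55 (SE 0.14, limma adjusted p = 0.023). The 7 calls became 2 without Control 1 and 2 without Prox1 OE 2, 3 without Control 2 and 4 without Prox1 OE 3, and the calls of Nfkbiz and Il1r1 held in each of these cases. The receptor genes Il22ra1, Il17ra and Il6ra had log2 fold changes of 0.35, 0.09 and 0.56 and did not pass. Under upper-quartile scaling 1 of the 20 was called higher and 4 lower, and DESeq2 called 2 higher and 8 lower. With the total read count as library size, 0 were higher and 10 of the 20 lower, against 39.9% lower over all genes. By edgeR the count was 0 higher and 7 lower, and 9 of the 20 had an unadjusted limma p under 0.05.

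Other targets of the same inflammatory signals, listed because Lcn2 is commonly induced with them, did not move together. Of 13 tested, 1 rose and 3 fell. Il1rn, the IL-1 receptor antagonist, had 3901 and 4504 normalised counts in Control and 1604, 1161 and 959 in Prox1 OE, and fell by 1.79 on the log2 scale (SE 0.21, limma adjusted p = 0.0026). The chemokine gene Ccl2 fell by 1.00 (SE 0.19, limma adjusted p = 0.0079) and the NF-kB inhibitor gene Tnfaip3 by 1.01 (SE 0.24, limma adjusted p = 0.017). Lbp, the lipopolysaccharide-binding protein made by hepatocytes, rose by 1.06 (SE 0.14, limma adjusted p = 0.0031). The Ccl2 call was lost without Control 1, and the Tnfaip3 call without Control 1, Control 2 or Prox1 OE 2. Haptoglobin (Hp), a hepatocyte acute phase protein, had a log2 fold change of 0.63 and did not pass.

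Of 9 tested genes for ligands and regulators of Pigr, 3 were higher and 2 lower, and the heavy chains of the immunoglobulins that Pigr carries were among the 3. Igha, the heavy chain of IgA, had 8.22 and 18.6 normalised counts in Control and 49.1, 158 and 91.4 in Prox1 OE, a log2 fold change of 2.75 (SE 0.55, limma adjusted p = 0.010). Ighm, the IgM heavy chain, had 322 and 269 in Control and 810, 514 and 1022 in Prox1 OE, a log2 fold change of 1.35 (SE 0.28, limma adjusted p = 0.011). Both were without overlap, although each call was lost without Control 1 and that of Ighm also without Control 2. Jchain, which joins IgA dimers and IgM pentamers, had 9.04 and 12.7 in Control and 14.3, 29.5 and 27.8 in Prox1 OE and did not pass (log2 fold change 1.02, limma adjusted p = 0.13). Ifngr1 and Tlr3, through which interferon gamma and double-stranded RNA signal, fell by 0.38 and 0.44 on the log2 scale (SE 0.10 and 0.13, limma adjusted p = 0.028 and 0.043). Both calls were lost without any library except Prox1 OE 1. Under upper-quartile scaling, 3 of the 9 were higher and 0 lower, and without Control 1 no call was left in either direction.

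Markers of other cells in which the 9 genes are known to be abundant were measured in the same libraries. Of 24 markers of pancreatic acinar cells, the main source of Gp2, 5 had 0 reads in all libraries, including Cpb1 and Amy2a5, and 12, these 5 included, never exceeded 3 reads. The acinar master regulators Ptf1a and Rbpjl had at most 1 read in any library. Of the 8 tested, 3 were higher and 2 lower (1 and 2 with the total read count as library size). The summed acinar list ran from 1650 to 2030 normalised counts in Control and from 2237 to 2797 in Prox1 OE. Spink1 and Cela1 carried most of this sum, and the other 22 genes ran from 676 to 978 in Control and from 206 to 341 in Prox1 OE. Spink1 and Cela1 rose by 1.03 and 1.14 on the log2 scale (SE 0.24 and 0.15, limma adjusted p = 0.016 and 0.0029), the Spink1 call being lost without either Control or with the total read count. Sycn, which encodes the zymogen granule protein syncollin, had 799 and 517 normalised counts in Control and 17.4, 77.9 and 35.9 in Prox1 OE. It fell by 4.09 (SE 0.56, limma adjusted p = 0.0032), and Ctrb1, a chymotrypsinogen gene, fell by 3.94 (SE 0.94, limma adjusted p = 0.018). The remaining acinar gene called, Prss2, rose by 1.74 (SE 0.50, limma adjusted p = 0.033). The 5 acinar calls became 2 without Control 1 (Cela1 and Sycn), and 3 without Control 2 or Prox1 OE 2.

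Neutrophils store Lcn2, and 7 neutrophil markers could be tested. Of the 7, 0 were called by limma, edgeR or DESeq2, but 1 was called lower by limma with the total read count as library size. In the main test, 0 of the 7 markers had an unadjusted limma p under 0.05. Their summed level was 903 to 1345 normalised counts in Control and 1082 to 1447 in Prox1 OE and overlapped. The part of neutrophils in the Lcn2 level was not tested. Of 7 plasma and B cell markers tested, 2 were higher, Ighm and Cd79b (0 without either Control, and 1 without Prox1 OE 2 or 3), and the summed list ran from 581 to 602 in Control and from 978 to 1490 in Prox1 OE, or from 259 to 333 and from 301 to 468 without Ighm. Its part in the Igha and Ighm differences was not tested. Of 15 gastric and intestinal markers, 7 never exceeded 3 reads, including Gkn1, Cdx2 and Muc5ac, and Tff1 was at 0. Of the 5 tested, 0 rose (1 under upper-quartile scaling and 1 by DESeq2) and 3 fell. The 3 were the intestinal cadherin Cdh17 and the apical genes Aqp5 and Vil1. Cdh17 fell by 3.09 on the log2 scale (SE 0.72, limma adjusted p = 0.016). All 3 calls were lost without Control 1, without Control 2 and without Prox1 OE 2. Lgals4, the most abundant of the 5, had 306 and 470 normalised counts in Control and 497, 911 and 697 in Prox1 OE. It was higher in every Prox1 OE library but did not pass (log2 fold change 0.84, limma adjusted p = 0.058). The summed gastric and intestinal list ran from 1416 to 2746 normalised counts in Control and from 1001 to 1396 in Prox1 OE.

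Markers of bile duct cells moved in the direction of Gp2, Reg3b, Reg3g and Fcgbp. The 9 genes were picked with this contrast known, so the size of their fold changes beside those of the markers is read no further. Over the 13 tested, the median log2 fold change was -1.21 and the lowest was -2.98 (Cldn4), above the -4.20 of Fcgbp. Markers of hepatocytes moved in the direction of Pigr, with a median of 1.73 against 1.04 for Pigr. Whether the 9 genes came from tumour cells, from remaining bile ducts or from liver around the nodules was not tested.

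The genes next to the 9 on their chromosomes were tested to see how far the differences reached. Among 46 protein-coding neighbours, 3 on either side of each gene, 32 were tested, and 5 were higher, 6 lower and 21 neither (3 higher and 13 lower with the total read count as library size). The share called (34.4%) was close to that of all genes (33.3%), and the median log2 fold change was 0.00. Beside Gp2, Pdilt and Acsm5 rose by 1.42 and 1.74 on the log2 scale (SE 0.29 and 0.20, limma adjusted p = 0.010 and 0.0025), and Iqck and Gprc5b fell by 0.78 and 0.89 (SE 0.23 and 0.24, limma adjusted p = 0.040 and 0.029). Beside the Reg3 genes, Reg1 and Ctnna2 fell. Beside Fcgbp, 9530053A07Rik fell by 1.63 (SE 0.52, limma adjusted p = 0.048, called in 6 of 15 alternatives), and beside Pigr, AA986860 fell by 1.41 (SE 0.26, limma adjusted p = 0.0071) while Pigr was higher. Around Lcn2 and Muc1, 1110008P14Rik, Slc25a25 and Mtx1 rose by 0.48, 1.34 and 0.48. Of the 11 calls, that of Acsm5 held with any library left out and that of Reg1 was lost without Control 2 only, whereas the other 9 were lost without either Control. The number of neighbours called was 2 without Control 1, 1 without Control 2, 6 without Prox1 OE 2 or 3, and 17 without Prox1 OE 1.

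Finally, genes with the most similar profile over the 5 libraries were sought among 14069 genes with a mean of at least 50, by the Euclidean distance between centred log2(normalised count + 1) profiles. These distances describe 5 libraries in 2 groups and carry no test. The nearest genes to Gp2 were Dmbt1 (distance 3.15), the kinase gene Stk32b (3.20) and the proton pump subunit gene Atp6v1b1 (3.23), so that no gene lay close to it. Atp6v1b1 had 357 and 369 normalised counts in Control and 4.09, 4.72 and 2.31 in Prox1 OE, and Stk32b had 866 and 1377 in Control and 54.2, 21.2 and 8.10 in Prox1 OE. Both showed the separation of the Gp2 groups, with a smaller fold.

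Reg3g was nearest to Dmbt1 (1.37), to Sptssb, a regulator of sphingolipid synthesis (1.65), and to Reg3b (1.82). For Pigr, the nearest were Lin7a (0.0758), 2310039H08Rik (0.0983) and Cadm3 (0.125), each with its lowest value in Control 1 and its highest in Prox1 OE 3, as in Pigr. For Lcn2, they were Wnk4 (0.134), 5330417C22Rik (0.278) and the antisense gene Gm11696 (0.279), each with the lowest value in Prox1 OE 3. Dmbt1 was the only gene listed among the 3 nearest of both Gp2 and Reg3g.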

How the data were processed

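Per the labels and the study's methods, the authors prepared strand-preserving dUTP libraries from total RNA, sequenced them as pairs of 100 base reads and aligned them to mm10 with STAR. The counting tool is not given in the sources used here. The deposited table holds a normalised count per gene, a signal made by the authors as reads divided by a DESeq2 size factor. All values (100%, tolerance 0.01 read) were whole multiples of 1 read, worth 0.822 to 1.18 normalised counts, so reads were recovered. A second deposited table, with the authors' own fold changes and p-values for the comparison, was not used. The number of unassigned columns was 0.

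The 9 genes and all gene lists were chosen with earlier results of these data known. Values were tested as log2(normalised count + 1) with limma 3.58.1 (R 4.3.3; lmFit and eBayes with trend) over 17105 genes with a mean of at least 10, two-sided and without covariates. Adjusted p-values (Benjamini-Hochberg) under 0.05 were called. Positions came from GENCODE on GRCm38 (mm10), which matched 55137 of 55397 identifiers, and promoters from RefSeq. Sequences were aligned with Biopython 1.88. Named related genes were up to 4 called genes per list with the largest change at a mean of at least 50, plus genes at 0 or at the floor of 3 reads. Marker genes, called neighbours and nearest profiles were also named. Reg1, Umod, Ctrb1, Prss2, Lyz2, Slpi, Spdef, Tnfrsf11a, Reg4, Ifngr1, Tlr3, Jchain, Hp, the interleukin receptors and the mucins that were not called were named after their values were seen. Alternatives were TMM, upper-quartile and total-count scaling, other pseudocounts and filters, limma without trend, edgeR 4.0.16 and DESeq2 1.42.0 on the recovered counts, a block for the replicate number and leaving out each library. The limma procedure was also run on simulated data, and the outcome is not given here. Floors and read totals cover counting error only. A result for 1 gene of the Pigr list is not reported here, although the gene is included in the counts.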

Additional observations from a re-analysis of the deposited data

How the results depend on the processing

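The 9 genes kept their direction under each alternative run (16, or 15 for Tff3, whose mean is under 50), except Lcn2, whose log2 fold change was 0.0905 without Prox1 OE replicate 3 and with the replicate block. Of 143 values for the 9 genes, 137 kept their sign and moved by less than the spread between replicates, and 2, both of Lcn2, changed sign. The other filters and limma without trend cannot change a gene's fold change. The replicate block gave the same fold changes as leaving out Prox1 OE 3. The 143 values therefore include repeats, and the 2 sign changes of Lcn2 are 1 result. A pseudocount of 10 gave -3.74 for Reg3b, -4.66 for Reg3g and 1.90 for Tff3. With the total count as library size, where the median of all genes moved to -0.44, Fcgbp was at -4.63 and Tff2 at -1.90. Leaving out 1 library at a time gave -1.85 to -1.10 for Tff2, -0.43 to 0.0905 for Lcn2, 1158 to 7491 for genes called in all (681 to 3738 higher, 477 to 3753 lower), 11 to 45 for related genes (3 to 17 higher, 8 to 28 lower) and 1 to 17 for neighbours (1 to 9 higher, 0 to 8 lower). The lowest and highest totals came without Control 1 and Prox1 OE 1, and for neighbours without Control 2 and Prox1 OE 1. Where a Control was left out, the lone Control was assumed to vary like the other group. The total count gave 1475 genes higher and 6833 lower in all, and 3 neighbours higher and 13 lower. limma without trend called 22 related genes, 13 of them lower. Testing all 28705 genes with a read called 7 neighbours, 3 of them lower. The causes of these changes were not tested.

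Control and Prox1 OE libraries shared the replicate numbers 1 and 2, but deviations from the group means correlated at 0.137 and 0.0156 only, so the numbers were not taken to pair the samples. The replicate block was fitted on replicates 1 and 2 of each group only, with Prox1 OE 3 left out. With it, 5246 genes were called, and the Lcn2 value was 0.0905. Counts for related genes (36) and neighbours (11) were within 1.5 times those without the block. With 2 and 3 libraries per group, and 5 to 11 Tff3 reads in Control, the size of the low genes' differences is known only roughly.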

Other observations

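Muc6, Muc15 and Saa1, from the mucin and inflammatory lists, varied widely within a group and were picked out after their values were seen. Muc6, a gel-forming mucin of gastric glands, had 9.04 and 658 normalised counts in Control 1 and 2, and 119, 118 and 62.5 in Prox1 OE 1, 2 and 3. Control 2 alone stood high, and the groups overlapped (log2 fold change 0.25, limma adjusted p = 0.91). Without Control 1 the log2 fold change was -2.77 (limma adjusted p = 0.030), and without Control 2 it was 3.27 (limma adjusted p = 0.016). Muc15, a membrane mucin, had 34.5 normalised counts in Control 1 and 0 in the other 4 libraries. The acute phase gene Saa1 had 16578 and 23471 in Control 1 and 2, and 20688, 105782 and 54404 in Prox1 OE 1, 2 and 3, and did not pass the test (log2 fold change 1.32, limma adjusted p = 0.12). Without Prox1 OE 1 it was 1.94 with a limma adjusted p of 0.0090. Saa1 was highest in Prox1 OE 2, the library in which Lcn2 was highest and Reg3b and Reg3g were lowest. Saa1 has a close copy, Saa2, and how the counting divided reads between the 2 is not given in the sources used here, so the Saa1 level is uncertain.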
